A study of Mus musculus with 9 samples.

Results

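The 37 genes described here encode parts of motile cilia and of the sperm tail: the axonemal dynein arms, the factors that assemble those arms in the cytoplasm, the radial spokes and the nexin-dynein regulatory complex. They were taken by name, as every gene of the deposited table whose symbol begins with Dnah, Dnai, Dnal, Dnaaf, Odad or Rsph, or with Drc and a digit. Of 19991 genes in the table, 15 began with Dnah, 2 with Dnai, 3 with Dnal, 7 with Dnaaf, 7 with Rsph and 3 with Drc; 0 began with Odad. The testis RNA came from 8-week-old ICR mice, an outbred stock, in 3 groups of 3 libraries. Control mice were injected with PBS, and the others received AZ82 at 1 µM or CW069 at 50 µM. Both compounds are inhibitors of KIFC1, a minus-end-directed kinesin of the spindle and of the spermatid, and the series asks how its inhibition affects testicular gene expression. No time after injection is given, and whole testis mixes germ cells of all stages with somatic cells.

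A motile axoneme is a ring of microtubule doublets around a central pair. Outer and inner dynein arms on each doublet pull on its neighbour, the radial spokes carry signals from the central pair to the arms, and the regulatory complex ties doublets together and limits their sliding. In the testis these genes are switched on in late meiosis and in round spermatids, and airway cilia use a related but partly different set of subunits.

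The libraries held 13856070 to 18102593 counts, and all 37 genes passed the filter on low counts. The 37 genes together took 0.944 to 1.49% of all counts of a library. Control 3 stood apart: the 10 elongating spermatid markers, such as Prm1 and Tnp1, summed to 6869 CPM (counts scaled to a common library size with TMM factors, which allow for RNAs that fill some libraries more than others) there, to 16046 and 18132 CPM in the other Control libraries, to 16564 to 20030 CPM with AZ82 and to 13443 to 15783 CPM with CW069. Round spermatid markers were closer, with sums of 4069 to 4348, 4369 to 4619 and 4182 to 4653 CPM in Control, AZ82 and CW069, as were spermatocyte markers with 1265 to 1487, 1343 to 1426 and 1371 to 1450 CPM. The round spermatid sum of each AZ82 library nevertheless lay above that of each Control library. Most of the round spermatid sum was Ldhc, with a mean of 3140 CPM. The median log2 deviation of the 9 round spermatid markers from their means varied more. Control libraries spanned -0.191 (Control 3) to 0.006, AZ82 libraries -0.031 to 0.168, CW069 libraries -0.040 to 0.133. The part of this spread in the results below was not tested. The 7 Leydig cell markers summed to 1692 to 1806 CPM in Control, 1435 to 1737 CPM with AZ82 and 1386 to 1443 CPM with CW069, so that CW069 lay below Control in every library; its part in the results below was not tested. The 8 Sertoli cell markers summed to 278 to 304 CPM in Control, 253 to 265 CPM with AZ82 and 259 to 330 CPM with CW069. Here AZ82 lay below Control in every library, and the part of this was not tested either. Of 8 epididymis markers, 7 had a mean under 1 CPM. Of 8 markers of the multiciliated cells that line the rete and efferent ducts, 4, among them Mcidas and Gmnc, had a mean under 1 CPM, and 0 were at 0 in every library; the sum was 68.7 to 95.5 CPM in Control, 91.3 to 102 CPM with AZ82 and 89.3 to 94.3 CPM with CW069, most of it Foxj1, which spermatids also express.

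The heavy chains, the motors themselves, were led by the sperm-type outer arm genes. Per length of transcript, over the 9 libraries, Dnah8 had a mean of 274 CPM per kb and Dnah17 one of 62.3 CPM per kb, while Dnah5, Dnah9 and Dnah11, the outer arm motors of airway cilia, had 0.410, 1.17 and 0.293 CPM per kb. The inner arm genes and Dnah14, whose place in the axoneme is not assigned here, lay close together, from 15.5 CPM per kb for Dnah10 to 30.6 CPM per kb for Dnah1. Dnah2, which with Dnah10 forms the double-headed inner arm, had 30.5 CPM per kb. By counts, which grow with transcript length (16685 bases for Dnah8), Dnah8 stood first of the whole table in 5 of the 9 libraries. Among them was each CW069 library, and its lowest rank was 7, in Control 1. Ranks per length were not taken over the whole table.

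Of the intermediate chains, which dock the motors, Dnaic1 (now named Dnai1) had 53.3 and Dnaic2 (now Dnai2) 34.2 CPM per kb. Of the light chains, Dnali1 of the inner arms had 109 CPM per kb, and Dnal4 and Dnal1 of the outer arm had 59.3 and 5.61. Among assembly factors, which fold and join the arms before transport into the tail, Dnaaf1 was far above the rest with 357 CPM per kb. Dnaaf3 followed with 44.0, Dnaaf5 with 16.7, and Dnaaf6b was the lowest with 0.483 CPM per kb.

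The spoke gene with the highest level, and the highest of all 37, was Rsph1, a protein of the spoke head, with 747 CPM per kb. Rsph6a, the sperm counterpart of the spoke head gene Rsph4a, had 98.5 CPM per kb, while Rsph4a itself, used in airway cilia, had 0.141, the lowest of the 37. Rsph3a had 91.6, Rsph9 68.7, Rsph3b 23.4 and Rsph14 13.1 CPM per kb. The 3 genes of the regulatory complex lay between 29.6 (Drc3) and 61.1 CPM per kb (Drc1), with Drc7 at 39.5. These levels rest on the longest annotated transcript, so another isoform would move them.

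**Figure D1:**
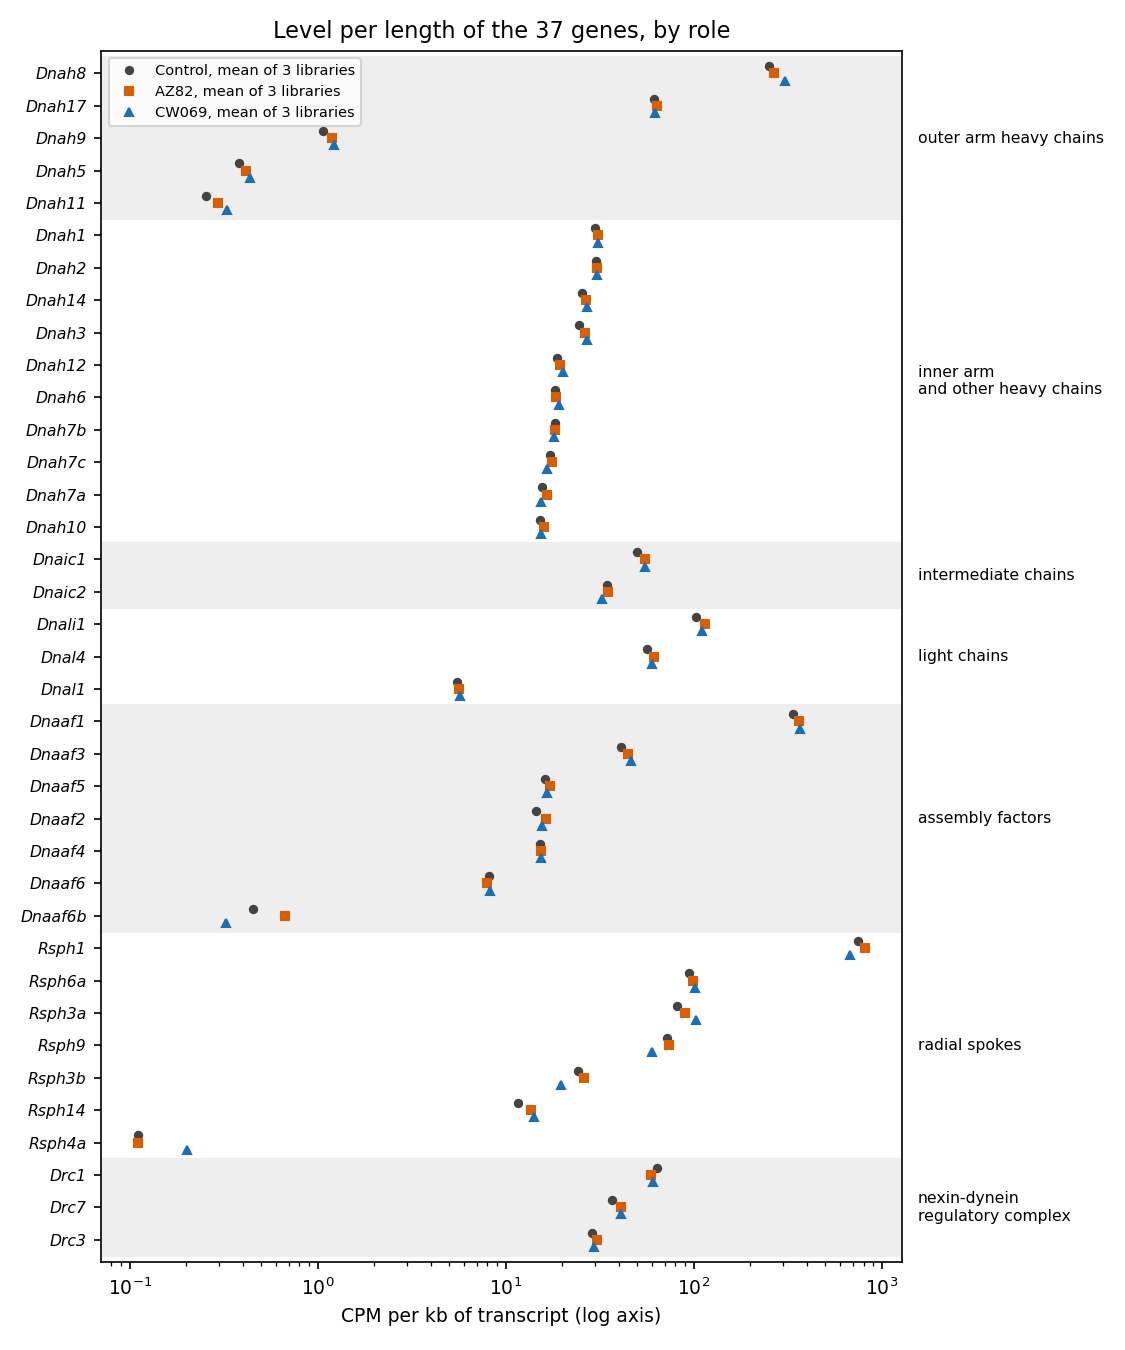
Mean level of each gene in Control, AZ82 and CW069 (3 libraries each) in CPM per kb of transcript on a log axis, grouped by role. Dnah8, Dnaaf1 and Rsph1 stand at the top of their groups, with means over all libraries of 274, 357 and 747 CPM per kb, and the group means lie close together for nearly all genes above 1 CPM per kb.

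Promoters are shown for Dnah8, Rsph3a and Dnali1, the most abundant heavy chain, and the genes with the smallest p against Control after CW069 and after AZ82. They are RefSeq windows of GRCm38.p6, an earlier build than that of the counts, from 250 bases before to 50 bases after the annotated start, read along the gene. Capitals mark AACGG, the core bound by MYB factors, or its reverse complement CCGTT.

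Dnah8 promoter, chr17:30626686-30626985, + strand: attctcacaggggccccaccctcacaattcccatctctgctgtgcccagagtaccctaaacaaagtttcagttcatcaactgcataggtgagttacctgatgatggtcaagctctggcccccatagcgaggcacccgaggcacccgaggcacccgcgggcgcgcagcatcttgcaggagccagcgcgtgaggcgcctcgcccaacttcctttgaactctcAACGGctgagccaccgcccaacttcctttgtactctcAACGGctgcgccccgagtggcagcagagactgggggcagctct
Rsph3a promoter, chr17:7945364-7945663, + strand: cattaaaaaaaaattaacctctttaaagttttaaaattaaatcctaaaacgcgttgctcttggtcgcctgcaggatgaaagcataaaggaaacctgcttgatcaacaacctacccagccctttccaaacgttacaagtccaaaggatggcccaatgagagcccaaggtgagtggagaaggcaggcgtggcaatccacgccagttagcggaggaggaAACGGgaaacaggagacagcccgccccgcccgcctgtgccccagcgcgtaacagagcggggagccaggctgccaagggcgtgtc
Dnali1 promoter, chr4:125065608-125065907, - strand: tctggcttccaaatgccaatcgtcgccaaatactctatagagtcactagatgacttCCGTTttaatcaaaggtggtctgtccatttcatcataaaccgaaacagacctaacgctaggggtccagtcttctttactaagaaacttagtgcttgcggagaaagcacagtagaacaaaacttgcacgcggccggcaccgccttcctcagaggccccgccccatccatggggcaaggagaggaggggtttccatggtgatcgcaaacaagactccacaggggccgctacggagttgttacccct

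The core occurred 2 times in the Dnah8 window and 1 time in each of the others. Of the 37 genes, 33 had a window in the table, without Dnah3, Dnaaf1, Rsph1 and Rsph4a. The AACGG core, on either strand, occurred in 17 of 33 (51.5%) and in 17.7% of all 27025 windows. GTTGCC, an arm of the motif bound by RFX factors, occurred in 12 of 33 (36.4%) and in 12.7% of all windows. Paralogs were counted singly and may not be independent. The 12 include Dnah7a, Dnah7b and Dnah7c, and Dnaaf6 with Dnaaf6b. The 17 include Rsph3a with Rsph3b, and Dnaaf6 with Dnaaf6b. Other motifs searched in the same way were AACTG, another form of the MYB core (63.6% against 44.8% of all windows), CCAAT (51.5 against 37.9%), TGACG (15.2 against 21.0%), TGACGTCA, which contains TGACG (3.03 against 1.88%), GTAAACA (3.03 against 3.55%) and TATAAA (6.06 against 14.2%). Median GC content was 54.3% in the 33 windows and 52.7% in all. A match is a run of letters, not a measured binding site.

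Against Control, 0 of the 37 genes passed an adjusted p of 0.05 after AZ82 (edgeR quasi-likelihood test, Benjamini-Hochberg over 15834 genes), by DESeq2 or by limma-voom, and the share called over all genes by edgeR was 0%. At an unadjusted p under 0.05, 1 of the 37 was higher, Dnali1, where 4.04% of all genes were higher, and 0 were lower, where 4.79% of all genes were. DESeq2 and limma-voom each had 1 of the 37 at that level in either direction, where 1027 and 1433 of all 15834 genes were. At the adjusted threshold they called 6 and 1 of all genes. The number higher in edgeR was 0 without AZ82 1, Control 2 or CW069 2, 2 without CW069 3, 4 without AZ82 3 and 5 without Control 3. The share of all genes at that level was not counted for fits with a library left out or another scaling. Such numbers, here and below, cannot be set against all genes. The median log2 fold change of the 37 was 0.087, with 34 above 0, beside a median of -0.001 and 49.7% above 0 for all genes tested. Scaled by library size alone, without TMM factors, the median of the 37 was 0.001 with 19 above 0, and that of all genes was -0.081 with 31.2% above 0; the gap between the medians was 0.088 with TMM and 0.082 without. With that scaling, 0 of the 37 were higher and 1 was lower at an unadjusted p under 0.05. In bulk tissue, more cells of a type and more RNA per cell cannot be told apart.

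By role, the medians after AZ82 were 0.13 for outer arm heavy chains, 0.056 for inner arm and other heavy chains, 0.080 for intermediate chains, 0.14 for light chains, 0.10 each for assembly factors and spokes and 0.088 for the regulatory complex. The values depended on single libraries. The median of the 37 came to 0.048 without Control 1, 0.055 without Control 2 and 0.118 without Control 3. It was 0.064 without AZ82 1, 0.091 without AZ82 2 and 0.117 without AZ82 3. The gap to the median of all genes was 0.053 without Control 1 and 0.118 without Control 3. Control 1 held the lowest value of 15 of the 35 genes at 1 CPM or more, and AZ82 1 the highest value of 9. Control 3, the library with few late spermatid transcripts, exceeded both other Control libraries in 23 of these genes and in 12 of the 15 heavy chains, with a median log2 difference of 0.24 over the heavy chains; the part of either in the other was not tested.

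After CW069, 0 of the 37 passed the adjusted threshold in edgeR, DESeq2 or limma-voom. Of all genes tested, edgeR called 0%, DESeq2 28 genes and limma-voom 0. At an unadjusted p under 0.05, 2 of the 37 were higher in edgeR, Rsph3a and Rsph14, where 3.63% of all genes were higher. There 0 were lower, where 3.71% of all genes were. DESeq2 had 2 of the 37 at that level in either direction and limma-voom 3, where 847 and 1225 of all 15834 genes were. The number higher was 1 without AZ82 2, AZ82 3 or CW069 3, 3 without Control 1, 4 without Control 2 and 5 without Control 3. The number lower was 1 without Control 1 or AZ82 1. For these fits too, the share of all genes at that level was not counted. The median was 0.072 with 28 above 0, beside -0.004 and 49.0% above 0 for all genes. Scaled by library size alone it was 0.019 with 19 above 0, and all genes had a median of -0.051 with 36.3% above 0; 1 of the 37 was then higher and 1 lower at an unadjusted p under 0.05. Leaving out Control 1 gave a median of 0.031, leaving out Control 3 one of 0.115, and leaving out CW069 3 one of 0.042. The gap to the median of all genes was 0.033, 0.118 and 0.042 in these fits, and 0.076 with all libraries. Outer arm heavy chains had a median of 0.21, inner arm and other heavy chains one of 0.029, intermediate chains one of 0.031, light chains one of 0.096, assembly factors one of 0.033, spokes one of 0.11 and the regulatory complex one of 0.044.

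The precision was set by the spread between libraries. The 95% interval of a log2 fold change had a median half-width of 0.20 over the 37 genes in each of these comparisons, a factor of 1.15. Comparisons of AZ82 and of CW069 with Control share the Control libraries and are given side by side only.

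**Figure D2:**
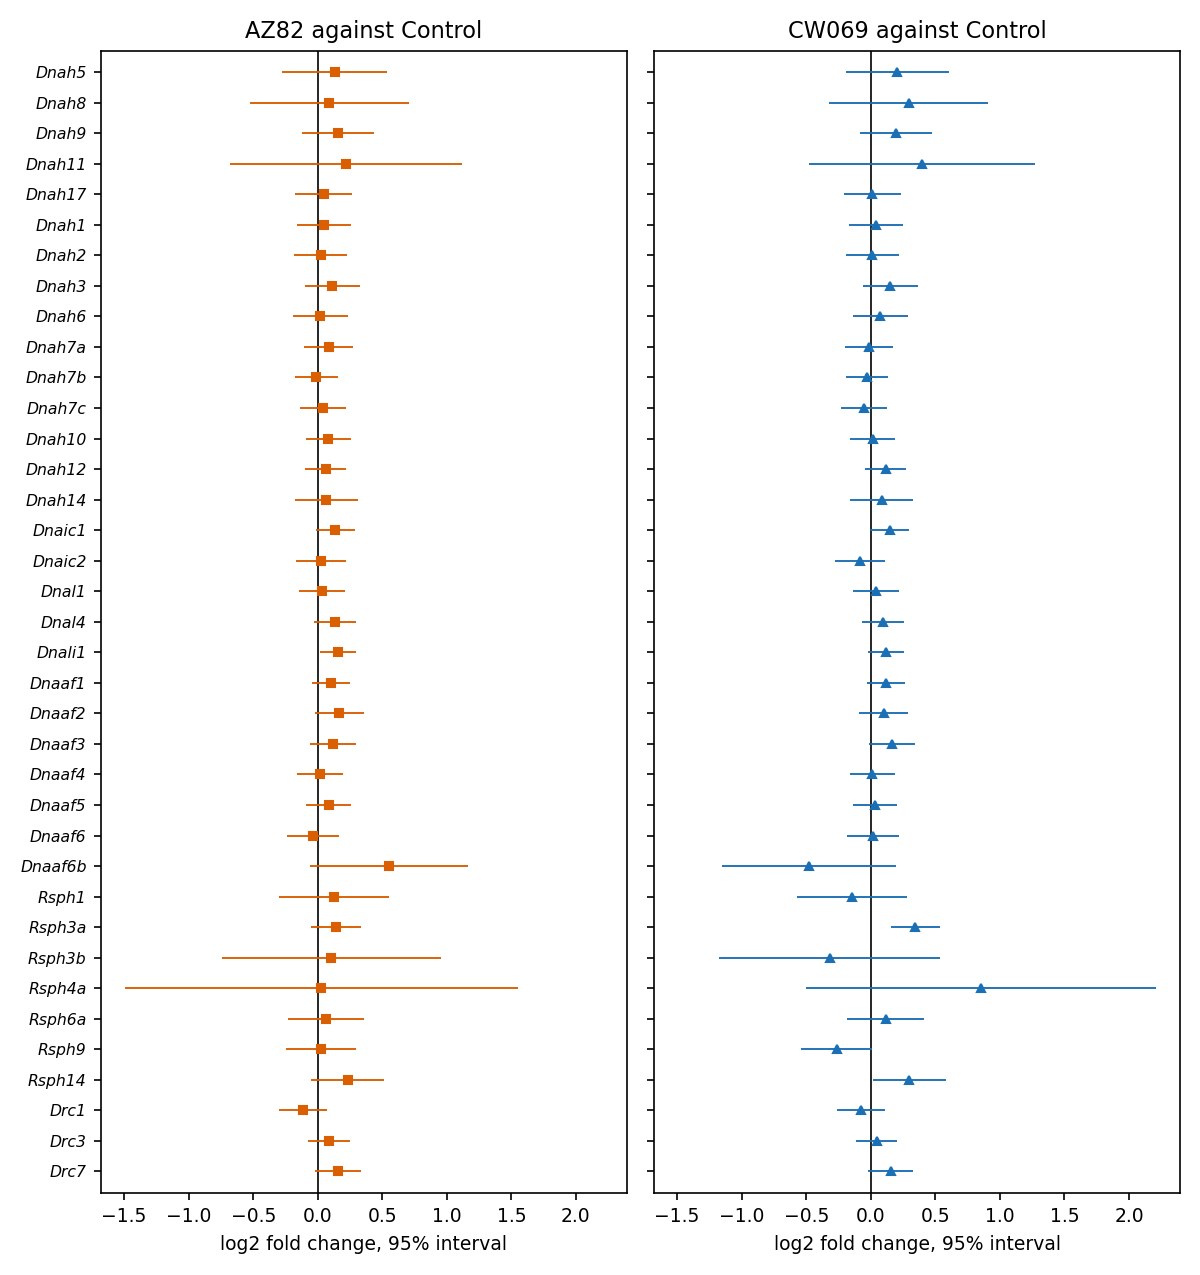
Log2 fold change of each of the 37 genes (rows, in order of role) for AZ82 and CW069 against Control, with 95% intervals from edgeR over 3 libraries a group. Most points lie right of 0, 34 of 37 after AZ82 and 28 of 37 after CW069 with TMM scaling but 19 in each case with library size alone, and the intervals of Dnali1 after AZ82 and of Rsph3a and Rsph14 after CW069 lie above 0 before adjustment.

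**Figure D3:**
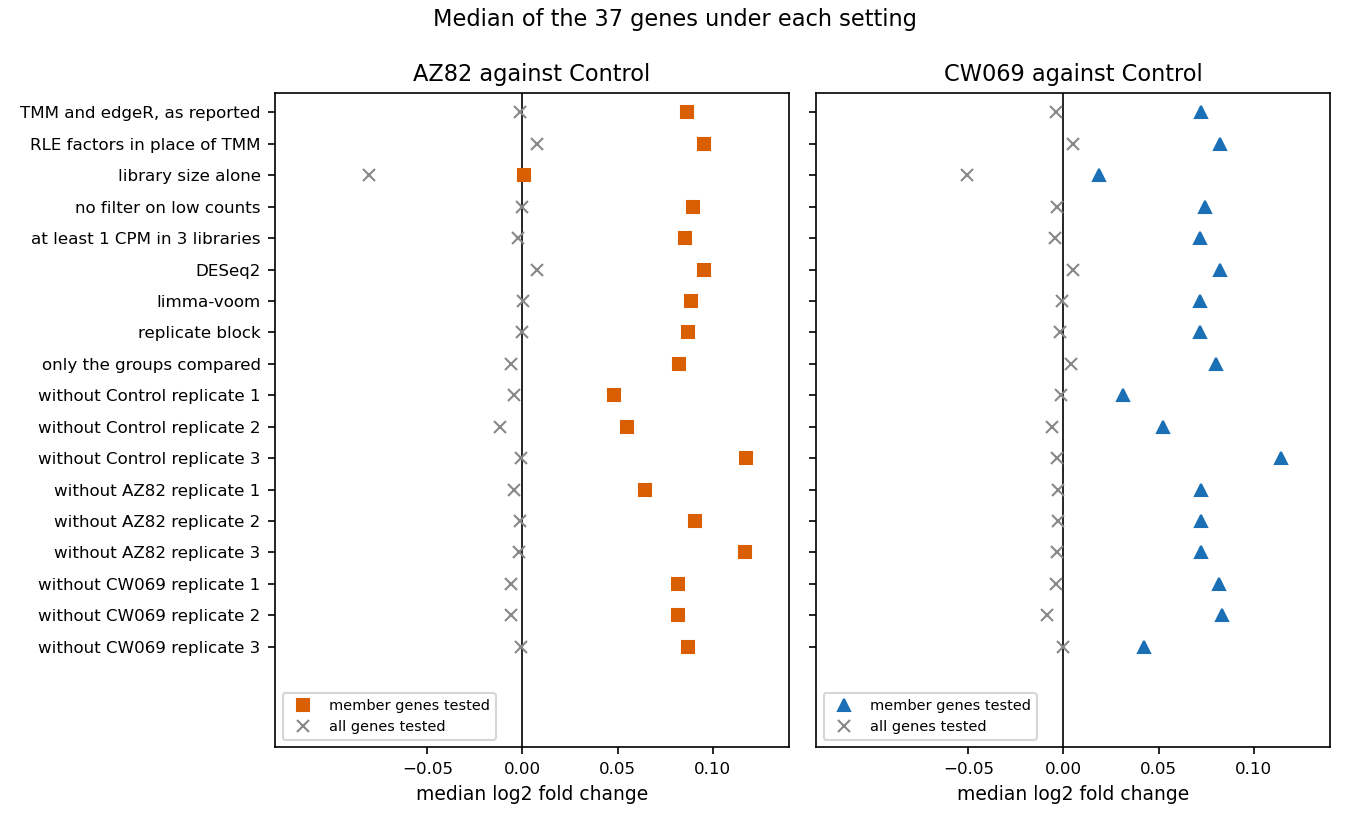
Median log2 fold change of the member genes tested (filled symbols) and of all genes tested (crosses) under each analysis setting, for AZ82 and CW069 against Control. Under library size alone both medians move left together, to 0.001 and -0.081 for AZ82, and leaving out single libraries, of Control or of AZ82, moves the filled symbols between 0.048 and 0.118 for AZ82.

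Dnah8 differed mainly between libraries of a group. Its level was 2722, 3644 and 6160 CPM in Control 1 to 3, 5843, 3642 and 3847 CPM in AZ82 1 to 3, and 4548, 4537 and 6259 CPM in CW069 1 to 3. Control 3, AZ82 1 and CW069 3 were the high libraries, 1 in each group, and the groups overlapped. The log2 fold change was 0.09 ± 0.28 (SE; 95% interval -0.53 to 0.70; edgeR adjusted p = 0.934) after AZ82 and 0.29 ± 0.28 (-0.32 to 0.91; adjusted p = 0.813) after CW069. Without Control 3 these were 0.48 and 0.68 (edgeR unadjusted p = 0.0440 and 0.00793; adjusted p = 0.637 and 0.400), and the AZ82 value turned to -0.14 on leaving out Control 1, to -0.0042 on leaving out Control 2, to -0.16 on leaving out AZ82 1 and to -0.0082 with library size alone. The share of heavy-chain CPM that came from Dnah8 ran from 44.0% in Control 1 to 60.3% in Control 3, from 49.5 to 59.6% after AZ82 and from 55.5 to 60.5% after CW069.

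Without Dnah8, the summed level of the heavy chains was 3687 ± 325 CPM in Control, 3823 ± 121 CPM with AZ82 and 3788 ± 259 CPM with CW069 (SD, n = 3 each). Dnah17, the partner of Dnah8 in the sperm outer arm, had 920 ± 100, 951 ± 79.5 and 928 ± 78.0 CPM. Dnah7a, Dnah7b and Dnah7c, inner arm paralogs with 96.8 to 97.3% identical aligned transcript bases, can exchange reads; summed, they had 626 ± 52.2, 642 ± 31.5 and 613 ± 17.95 CPM. The airway-type Dnah9 lay between 12.8 and 18.8 CPM and Dnah11 between 2.73 and 7.16 CPM, with overlapping groups.

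Next to Dnah8 on chromosome 17, Glo1, a glyoxalase gene, had 23.0, 28.2 and 37.4 CPM in Control, 37.8, 25.1 and 27.8 CPM with AZ82 and 33.6, 29.3 and 34.2 CPM with CW069. Its high libraries, Control 3, AZ82 1 and CW069 3, were those of Dnah8 in each group. Btbd9, on the same side, was highest in these libraries too, with 82.4 CPM in Control 3 and 82.1 CPM in Control 2. Umodl1 and Rsph1, on the other side, were not the highest of their group in Control 3 or AZ82 1. In CW069 3, Umodl1 was the highest of its group, with 13.6 CPM against 10.8 and 10.5 CPM, and Rsph1 the lowest. Glo1 was chosen after the values were seen, and why it varied together with Dnah8 was not tested.

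Rsph3a encodes a spoke stalk protein that can anchor protein kinase A. Its level was 174, 169 and 200 CPM in Control, 212, 193 and 195 CPM with AZ82, and 208, 244 and 239 CPM with CW069. With TMM scaling, each CW069 library was above each Control library, while AZ82 overlapped both groups. By total counts alone, Control 3 (3002 of 13856070 counts, TMM factor 1.09) lay above CW069 1 (3036 of 14669424). The log2 fold change for CW069 was 0.35 ± 0.09 (SE; 95% interval 0.15 to 0.54; edgeR unadjusted p = 0.00234, adjusted p = 0.524), and over the 17 alternatives it lay between 0.30 and 0.42 with adjusted p from 0.112 to 0.817. For AZ82 it was 0.14 ± 0.09 (-0.05 to 0.34; adjusted p = 0.624).

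Rsph3a has a near copy, Rsph3b, and their reads are hard to separate. Over 2186 aligned transcript bases 2168 were identical (99.2%), and 60.6% of the windows of 100 bases in Rsph3a also occur in another gene. The coding sequences, 1545 bases in Rsph3a and 1602 in Rsph3b (longest transcripts, GENCODE vM21), differed in 70 of 1602 alignment columns. Most of the 70 are bases present in Rsph3b alone, as the aligned transcripts hold 18 mismatches, and another isoform could change them. The longest identical stretch was 750 bases. The differences fall in 6 stretches. The 2 shown hold 2 and 3 of the 70 differing columns, as examples of places where few bases tell the copies apart; the other stretches hold the rest. Those shown start at coding base 77 and 554 of Rsph3a, counted from the start codon, and capitals mark bases that differ or are present in Rsph3b alone.

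Rsph3a: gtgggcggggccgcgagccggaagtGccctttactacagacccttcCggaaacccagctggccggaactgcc
Rsph3b: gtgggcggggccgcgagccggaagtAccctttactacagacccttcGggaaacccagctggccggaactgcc
Rsph3a: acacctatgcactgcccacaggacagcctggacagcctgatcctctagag
Rsph3b: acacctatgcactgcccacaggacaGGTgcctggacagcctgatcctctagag

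Rsph3b had 50.2, 52.2 and 61.3 CPM in Control, 61.9, 57.0 and 57.2 CPM with AZ82, and 62.6, 55.6 and 13.8 CPM with CW069. CW069 3 alone was low, with 243 counts, and the other 8 libraries lay between 50.2 and 62.6 CPM. The ratio of Rsph3b to Rsph3a was 0.288 to 0.308 in Control, 0.292 to 0.296 after AZ82, and 0.301, 0.228 and 0.0579 in CW069 1 to 3. The fold change of Rsph3b for CW069 was -0.32 ± 0.39 (log2, SE; edgeR adjusted p = 0.865), and 0.12 without CW069 3 (adjusted p = 0.904). The sum of both genes was 224, 222 and 261 CPM in Control, 274, 250 and 252 CPM with AZ82, and 270, 300 and 252 CPM with CW069. In the sum, unlike in Rsph3a alone, CW069 3 lay below Control 3, so the groups overlapped; whether reads moved between the copies in that library was not tested.

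Rsph1 split the libraries another way. It had 705, 1152 and 816 CPM in Control, 897, 1242 and 775 CPM with AZ82, and 822, 833 and 760 CPM with CW069. Control 2 and AZ82 2 were the high libraries and the groups overlapped. Its log2 fold change was 0.13 ± 0.19 after AZ82 and -0.15 ± 0.19 after CW069 (SE; edgeR adjusted p = 0.848 and 0.882). Slc37a1, a sugar phosphate transporter gene beside it on chromosome 17, was high in the same libraries. It had 16.9 CPM in Control 2 and 12.1 CPM in AZ82 2 against 6.47 to 8.35 CPM in the rest. Umodl1, on the other side, had 11.2, 11.4 and 11.3 CPM in Control and 13.2, 14.1 and 12.3 CPM with AZ82. Wdr4, on the side of Slc37a1, had 13.5, 10.4 and 11.1 CPM in Control and 10.4, 11.3 and 7.58 CPM with AZ82. Slc37a1 was chosen after the values were seen, and the link was not tested.

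**Figure D4:**
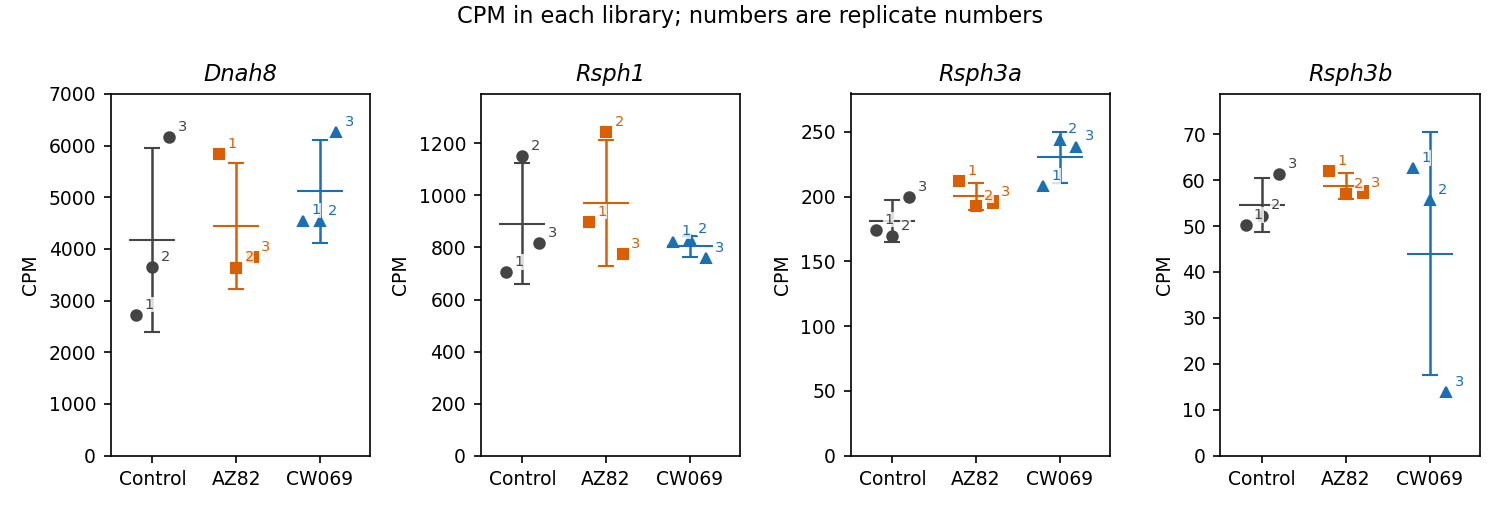
CPM of Dnah8, Rsph1, Rsph3a and Rsph3b in each library, numbered by replicate, with the group mean (horizontal bar) and SD (whiskers, n = 3). High libraries differ from gene to gene: Control 3, AZ82 1 and CW069 3 for Dnah8, Control 2 and AZ82 2 for Rsph1; Rsph3b is low, at 13.8 CPM, in CW069 3 alone.

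These genes and Rsph9 are 5 of the 37 that lie on chromosome 17. The comparison by chromosome was chosen after the values were seen. Among the 33 genes of 10 CPM or more, the 3 with the largest ratio of highest to lowest library were Rsph3b (4.54), Dnah8 (2.30) and Rsph1 (1.76). The median ratio was 1.76 over the 5 genes of chromosome 17 and 1.25 over the 28 others, of which the highest, Rsph14, had 1.67. All 9910 genes of at least 10 CPM had a median of 1.29, and the 487 of them on chromosome 17 one of 1.30. The mice were of an outbred stock, and no genotype is given.

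**Figure D5:**
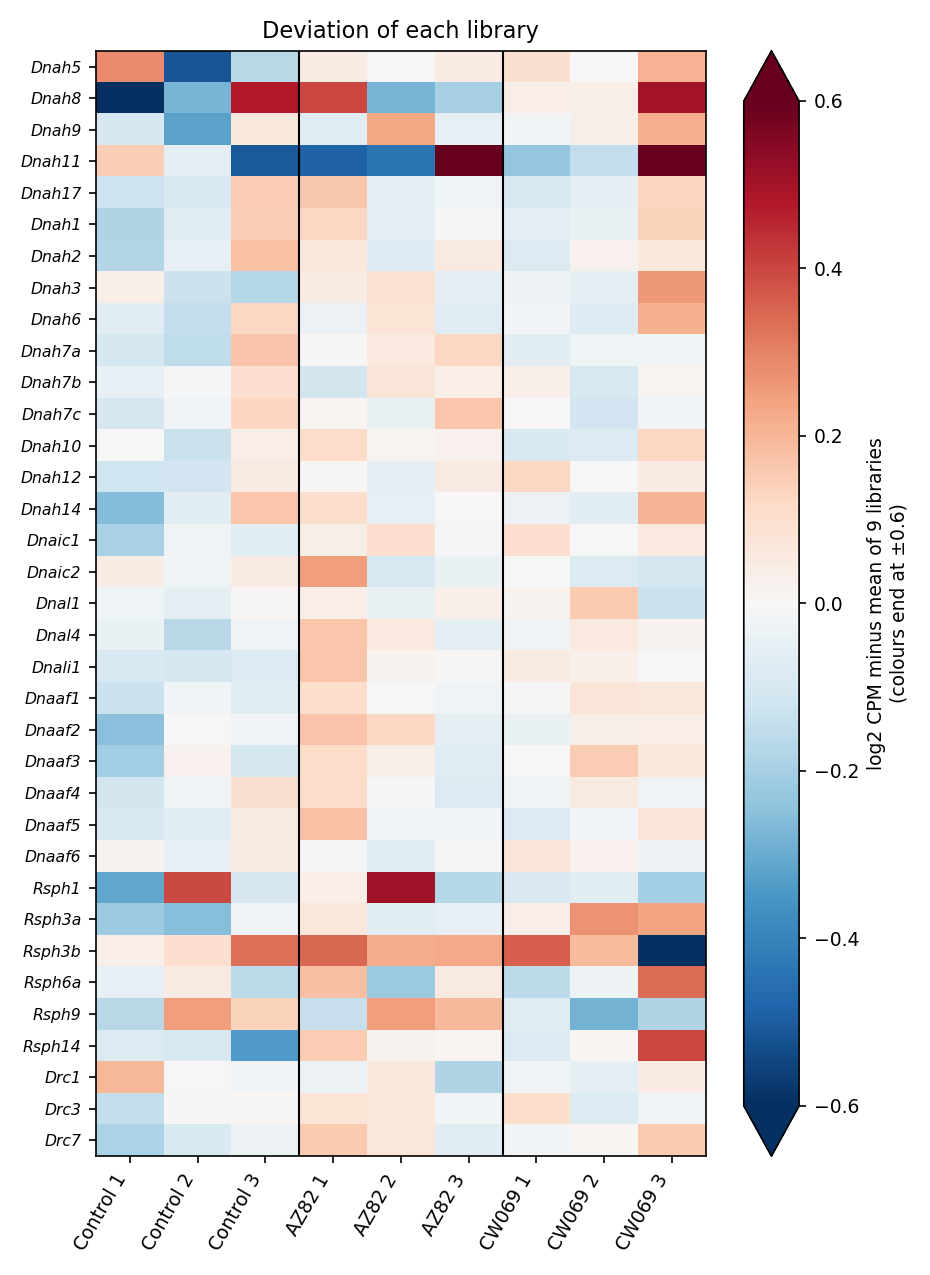
Log2 CPM of each gene in each of the 9 libraries, minus its mean over the libraries, for the 35 genes whose mean reached 1 CPM; red is higher and blue is lower, and colours end at 0.6 either way. Columns differ as wholes, with Control 1 lowest in 15 genes and AZ82 1 highest in 9, while single genes such as Rsph1 and Rsph3b follow another order.

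Dnali1 is the light intermediate chain of the inner arms. It had 219, 217 and 220 CPM in Control, 261, 236 and 234 CPM with AZ82, and 241, 238 and 232 CPM with CW069. With TMM scaling, each library of either inhibitor was above all 3 Control libraries. By total counts alone, Control 3 (3303 of 13856070 counts, TMM factor 1.09) lay above AZ82 3 (3241 of 14241754). The log2 fold change was 0.16 ± 0.06 after AZ82 (SE; 95% interval 0.02 to 0.30; edgeR unadjusted p = 0.0307, adjusted p = 0.554) and 0.12 ± 0.06 after CW069 (-0.02 to 0.26; adjusted p = 0.700). With library size alone the AZ82 value was 0.078 (edgeR unadjusted p = 0.320), and without AZ82 1 it was 0.10 (unadjusted p = 0.138).

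Rsph14, an armadillo-repeat spoke protein, had 21.2, 21.0 and 17.8 CPM in Control, 24.96, 22.8 and 22.7 CPM with AZ82, and 21.2, 22.7 and 29.6 CPM with CW069. AZ82 lay above Control throughout, and CW069 3 was the highest library. The log2 fold change was 0.23 ± 0.13 after AZ82 (SE; edgeR adjusted p = 0.607) and 0.30 ± 0.13 after CW069 (unadjusted p = 0.0400, adjusted p = 0.669). The CW069 value was 0.14 without CW069 3.

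The assembly factors showed small differences. Dnaaf1, needed for both arm types, had 957 ± 36.7 CPM in Control, 1027 ± 48.4 CPM with AZ82 and 1040 ± 32.6 CPM with CW069 (SD, n = 3 each), with log2 fold changes of 0.10 and 0.12 (edgeR adjusted p = 0.649 and 0.711). Dnaaf3 had 91.6 ± 7.49, 99.4 ± 6.24 and 103 ± 5.62 CPM, and Dnaaf5 56.0 ± 3.11, 59.5 ± 4.73 and 57.3 ± 3.23 CPM. Dnaaf2 and Dnaaf4 share 36.9% and 57.1% of their windows of 100 bases with predicted genes, so their mean levels of 52.4 and 30.4 CPM are uncertain. Of the 37 genes, 7 share more than 10% of such windows with another gene.

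The inhibitors were then compared with each other, at doses that differ (1 and 50 µM), so a difference cannot be assigned to the compound rather than to its dose. Of the 37 genes 0 passed the adjusted threshold in edgeR, DESeq2 or limma-voom. Of all genes tested, edgeR called 0%, DESeq2 13 genes and limma-voom 0. At an unadjusted p under 0.05 in edgeR, 1 of the 37 was higher after CW069, Rsph3a, where 2.58% of all genes were higher. Lower were 2, Dnaaf6b and Rsph9, where 2.39% of all genes were lower. DESeq2 and limma-voom each had 3 of the 37 at that level in either direction, where 519 and 764 of all 15834 genes were. Leaving out AZ82 3, CW069 2 or CW069 3 gave 0 higher and 1 lower, and leaving out AZ82 2 gave 1 of each, as did library size alone. All genes were not counted at that level in these fits. The median was -0.004 with 18 above 0, beside -0.001 and 49.6% above 0 for all genes, and with library size alone it was 0.027 with 23 above 0, beside 0.031 and 60.2% above 0 for all genes. The median half-width of the 95% intervals was 0.20.

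Dnaaf6b, a PIH-domain gene on chromosome X, had the smallest p, at very low counts: 9, 12 and 10 in Control, 16, 12 and 14 after AZ82, and 6, 8 and 9 after CW069. AZ82 and CW069 did not overlap, at 1.01 ± 0.154 and 0.490 ± 0.0708 CPM (SD, n = 3 each). The log2 difference was -1.03 ± 0.29 (SE; 95% interval -1.67 to -0.39; edgeR unadjusted p = 0.00486, adjusted p = 0.819). Dnaaf6, its relative on chromosome 1, had 11.5 ± 0.264 and 11.9 ± 0.462 CPM.

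Rsph9, a small spoke head protein, had 58.6, 78.3 and 72.4 CPM in Control, 59.7, 78.3 and 75.1 CPM with AZ82, and 62.5, 54.0 and 58.0 CPM with CW069. The groups overlapped through the lower libraries of Control and AZ82. Its log2 difference between CW069 and AZ82 was -0.29 ± 0.12 (SE; edgeR unadjusted p = 0.0417, adjusted p = 0.984), and that of Rsph3a was 0.20 ± 0.09 (unadjusted p = 0.0409, adjusted p = 0.984).

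With the mean of both inhibitors against Control, 0 of the 37 passed the adjusted threshold in edgeR, DESeq2 or limma-voom. Of the whole table, edgeR called 1 gene (0.00632%), DESeq2 12 and limma-voom 1. At an unadjusted p under 0.05 in edgeR, 5 of the 37 were higher, where 4.31% of all genes were higher. There 0 were lower, where 5.27% of all genes were. DESeq2 had 6 of the 37 at that level in either direction and limma-voom 5, where 1084 and 1603 of all 15834 genes were. The 5 were Rsph3a (log2 0.24), Rsph14 (0.27), Drc7 (0.15), Dnaic1 (0.14) and Dnali1 (0.14), with edgeR adjusted p of 0.490 to 0.518, and with library size alone 0 were higher at that level and 1 was lower. The number higher was 1 without AZ82 1, 2 without CW069 3, 3 without AZ82 2, Control 1, Control 2, CW069 1 or CW069 2, 8 without AZ82 3 and 9 without Control 3. As the share of all genes was not counted in these fits, a rise cannot be called particular to the 37. The median of the 37 was 0.066 with 29 above 0, beside -0.003 and 49.1% above 0 for all genes, and with library size alone 0.001 with 19 above 0 beside -0.067 and 32.5%. It was 0.032 without Control 1 and 0.121 without Control 3. The gap to the median of all genes was 0.038 and 0.128 in these fits, and 0.069 with all libraries.

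Of these, Dnaic1 had 117, 132 and 127 CPM in Control, 137, 143 and 133 CPM with AZ82, and 143, 133 and 139 CPM with CW069. With TMM scaling, each library of the inhibitors was above all Control libraries, by a small margin over Control 2. By total counts alone, Control 3 (1914 of 13856070 counts, TMM factor 1.09) lay above AZ82 1 (1879 of 14080156). Drc7, a subunit of the regulatory complex, had 98.0, 105 and 109 CPM in Control, 124, 117 and 107 CPM with AZ82, and 110, 113 and 124 CPM with CW069. AZ82 3 lay within the Control range. Drc1, which assembles the complex, had 158 ± 13.3, 146 ± 12.3 and 149 ± 5.53 CPM in Control, AZ82 and CW069, and Drc3 had 70.0 ± 4.13, 74.4 ± 2.67 and 72.2 ± 4.85 CPM (SD, n = 3 each).

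Other genes of the same machinery were listed by role: ruler and docking proteins, further assembly factors, the rest of the regulatory complex and spokes, arm companions, the central pair and transcription factors of motile cilia genes. Of 68 tested, 0 passed the adjusted threshold in edgeR, DESeq2 or limma-voom in any of the 4 comparisons. At an unadjusted p under 0.05, 6 were higher and 1 lower after AZ82, 8 higher and 0 lower after CW069, 0 higher and 1 lower between the inhibitors, and 8 higher and 1 lower for the mean of both. Over all genes tested the shares higher and lower were 4.04 and 4.79% with AZ82, 3.63 and 3.71% with CW069, 2.58 and 2.39% between the inhibitors and 4.31 and 5.27% for the mean. The companion medians were 0.093 after AZ82, with 53 above 0, and 0.054 after CW069, with 52 above 0; the 37 genes had 0.087 and 0.072, and all genes -0.001 and -0.004.

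The companion genes with the smallest p included regulators. Rfx1, a factor of the RFX family, had 115 ± 2.55 CPM in Control, 140 ± 8.02 CPM with AZ82 and 139 ± 15.2 CPM with CW069 (SD, n = 3 each), with log2 fold changes of 0.29 and 0.28 (edgeR adjusted p = 0.554 and 0.535). Sox5 and Sox30, germ cell factors of the SOX family, had log2 fold changes of 0.30 each after CW069 (edgeR adjusted p = 0.524 and 0.539). Lrrc56, an assembly factor, had 144 ± 2.56, 169 ± 6.10 and 158 ± 0.583 CPM, and Taf7l, a germ cell subunit of the general transcription machinery, 37.8 ± 1.09, 32.7 ± 0.249 and 34.2 ± 2.92 CPM. Between the inhibitors, Casc1, an inner arm companion, had a log2 difference of -0.24 (edgeR adjusted p = 0.977), and the next, Lrrc56 and Cfap298, had unadjusted p of 0.126 and 0.143. The outer arm docking genes, listed under the older symbols Ccdc114, Armc4, Ccdc151 and Ttc25 after the rows were seen, had a smallest edgeR adjusted p of 0.574 over the 4 comparisons.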

How the data were processed

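Testis RNA of 9 libraries, 3 per group, was sequenced from a stranded mRNA kit, per the labels' protocols. The values are counts of reads per gene as deposited by the authors, with no normalization; Trimmomatic, HISAT2 and HTSeq on GRCm39 are named in the submitters' processing notes, without settings. Whether counting used strand is not given in the sources used here, so reads of overlapping genes may be mixed. The 9 files of single libraries equalled their columns of the joint table. The labels do not say that samples of a group came from separate animals, so p-values measure only how far these samples vary, and that variation may be technical. No 2 libraries of the same group looked like copies, with a chi-square per gene of 3.48 or more in every such pair. Pairs between groups were not checked.

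The whole table was fitted with edgeR 4.0.16 (R 4.3.3; quasi-likelihood F test, TMM factors, default filter by group, 1 coefficient per group, 6 residual degrees of freedom). Of 19991 genes, 15834 were tested, with Benjamini-Hochberg adjustment over them and a threshold of 0.05. Intervals are 95% and come from this fit; they cover the spread between libraries. CPM uses TMM-scaled library sizes. Levels per kb use the longest protein-coding GENCODE vM21 transcript, matched for all 37 genes, and promoters are RefSeq windows; both are of GRCm38.p6 and served for names, lengths, gene order and sequence. Alternatives were RLE factors, library size alone, no filter, a minimum of 1 CPM in 3 libraries, limma-voom 3.58.1, DESeq2 1.42.0, a replicate block, the compared groups alone and each library left out.

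Genes named are Dnah8, Rsph3a and Dnali1, the 3 highest and the lowest of each role, those with an unadjusted p under 0.05, and 3 companion genes per comparison; other names were chosen after their values were seen. The members and lists were chosen with earlier results of these data known.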

Additional observations from a re-analysis of the deposited data

How the results depend on the processing

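No member passed the adjusted threshold under any of the alternatives run, including DESeq2, limma-voom and each library left out. The median between the inhibitors lay on both sides of 0; the other medians stayed above 0. Scaling by library size alone moved the median log2 fold change of the members to 0.0010 with 19 above 0 for AZ82 and to 0.0010 with 19 above 0 for the mean of both inhibitors; Control 3 had the largest TMM factor, 1.09. With libraries left out in turn, the median ran from 0.048 to 0.118 for AZ82, from 0.031 to 0.115 for CW069, from -0.041 to 0.028 between the inhibitors and from 0.032 to 0.121 for the mean of both, and the number above 0 from 24 to 35, 20 to 31, 13 to 25 and 21 to 32. In the same order, the share of all genes above 0 ran from 47.4 to 49.9%, 47.9 to 50.0%, 49.5 to 51.0% and 47.1 to 49.5%. The gap to the median of all genes, given above, moved as well. The cause of these shifts was not tested.

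Signs turned for single genes, none past the adjusted threshold. With libraries left out, Dnah8 ran from -0.16 (without AZ82 1) to 0.48 for AZ82, with -0.14 without Control 1 and -0.0042 without Control 2, and from -0.040 (without Control 1) to 0.58 for the mean of both; with library size alone it was -0.0082 for AZ82. Rsph3b ran from -0.67 to 0.12 for CW069, from -0.76 to 0.010 between the inhibitors and from -0.28 to 0.11 for the mean of both, each highest without CW069 3. Dnali1 between the inhibitors ran from -0.070 to 0.012, the latter without AZ82 1.

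Same-numbered libraries did not deviate together (correlations of -0.14 to 0.054, 0 of 9 over 0.1). With 3 libraries a group this check cannot exclude pairing, and the labels do not say whether equal numbers mean pairs. With a replicate block, the median was 0.087 for AZ82 and 0.072 for CW069, 0 members passed the adjusted threshold, and the members with an unadjusted p under 0.05 were 0 for AZ82, 1 for CW069, 2 between the inhibitors and 1 for the mean of both. All genes were not counted at that level with the block. The spread between 3 libraries limits the intervals to a factor of about 1.15 for a typical member.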
